A study of Hydra vulgaris with 12 samples.

Results

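A group of 124 predicted mRNAs of Hydra stood at a higher level from 4 h after bisection through 48 h than at 0 h and 2 h. They were selected on their own measured levels, out of 16988 predicted mRNAs in the deposited table. For the selection each library was scaled so that its median, over the 11325 transcripts with at least 1 RPKM in all 12 libraries, was 20. RPKM is the number of reads divided by transcript length and by the mapped reads of the library, and values scaled in this way are called scaled RPKM below. A transcript was kept when the lowest of its mean log2(scaled RPKM + 1) values at 4, 6, 12 and 48 h exceeded the higher of its means at 0 h and 2 h by at least 1. That difference is called the gap. The rule allowed up to 300 transcripts and 124 met it.

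Hydra is a small freshwater cnidarian with a tubular body and 1 end bearing mouth and tentacles, and it can replace a head that is cut off. The animals were strain 105 of Hydra magnipapillata, which the labels also file under Hydra vulgaris, and the labels name no transgene and no agent. Polyps carrying a young bud, starved for 1 day and pooled, were cut below the uppermost of the visible trunk regions, and the 2 regions under the cut were collected for poly(A) RNA after 0, 2, 4, 6, 12 or 48 h. Each time has 2 libraries, numbered as replicates by the labels and called the first and second pool here, which gives 12 libraries. The replicate numbers do not say whether the libraries of a time came from separate pools of animals. All animals were cut, so time since bisection cannot be told apart from time since feeding or hour of collection. In such bulk tissue a change in the number of cells of a type and a change in RNA per cell cannot be told apart either.

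Head regeneration in Hydra starts with the wound response and goes on to a new head organizer at the cut end. The organizer is a small group of cells that signals through Wnt ligands and beta-catenin and sets the pattern of the tissue below it, while epithelial cells of the trunk take on head fates and tentacle and mouth structures form later. Transcripts that come up early and stay up are of interest in this setting since they span the wound response, organizer formation and the onset of head structure.

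None of the 124 members could be paired with a gene name, a sequence or a genome position. The table gives RefSeq accessions alone. With or without the version number, 0 of the members were found in the list of genes of the Hydra assembly used here for names. Pathway and cell type lists could therefore not be applied, and members are printed by accession with no function attached. The 1 transcript of the table found in that list is Wnt3, the organizer ligand, which is a curated mRNA and so outside the rule. Its scaled RPKM was 1.37 and 1.90 at 0 h, 2.93 and 3.40 at 2 h, 5.84 and 4.44 at 4 h, 6.99 and 5.34 at 6 h, 5.89 and 7.61 at 12 h, and 11.1 and 9.29 at 48 h. All its later libraries lay above all its earlier ones, but its gap of 0.55 would have left it outside the limit.

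Few of the transcripts that came up at 4 h were also up at every later time. Of the predicted mRNAs, 639 had a mean at least 1 log2 unit above both 0 h and 2 h at 4 h, 485 of these also at 6 h, 350 also at 12 h and 124 also at 48 h, the members. The members are thus 19.4% of those up at 4 h and 14.3% of the 868 up at 48 h. The time at which most candidates dropped out was 48 h: 226 transcripts were up at 4, 6 and 12 h and not at 48 h, whereas only the 4 h mean fell short in 24 transcripts, only the 6 h mean in 19 and only the 12 h mean in 17. These counts come from the values the rule used and carry no test.

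**Figure D1:**
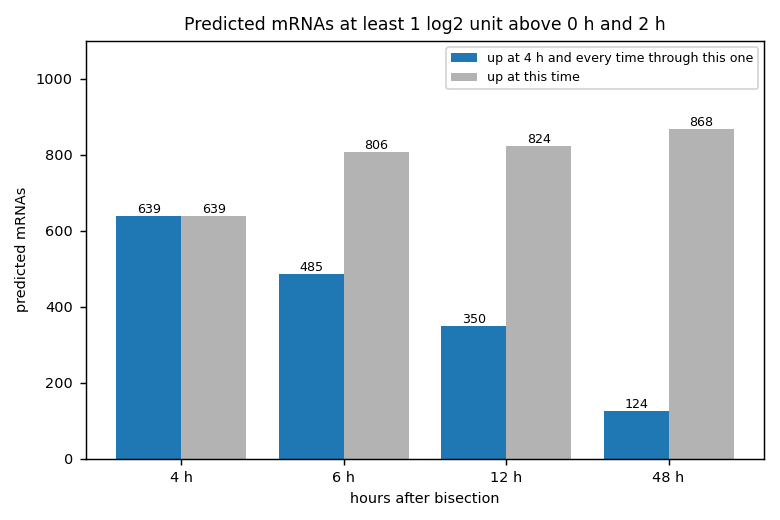
Number of predicted mRNAs (vertical axis) whose mean was at least 1 log2 unit above both 0 h and 2 h, by hours after bisection (horizontal axis); blue bars count transcripts up at 4 h and at every time through the one shown, grey bars those up at that time. The blue bars go down from 639 to 124, with the longest step between 12 h (350) and 48 h (124), while the grey bars go up from 639 to 868.

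The gap was mostly close to the limit. Its median over the members was 1.28, and the quartiles were 1.13 and 1.70. In 83 members it lay between 1 and 1.5, in 22 between 1.5 and 2, in 13 between 2 and 3, and in 6 at 3 or more. The last 2 members inside the limit were XM_002156960.2 with a gap of 1.01363 and XM_002161649.2 with 1.0119. The first 2 outside it were XM_002168621.2 with 0.997988 and XM_002159314.2 with 0.995725, so the edge of the group does not mark a break in the data. XM_002159314.2 stood at 35.3 and 33.8 scaled RPKM at 4 h, 10.5 and 17.8 at 12 h, and 15.6 and 12.1 at 48 h, against 6.42 and 6.33 at 2 h, and came just short at both 12 h and 48 h.

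The members covered a wide range of abundance. Their mean over the 8 later libraries had a median of 68.7 scaled RPKM and their mean over the 4 earlier ones a median of 12.7. Over the 14089 transcripts tested below, the same medians were 15.1 and 15.0. By later mean, 6 members lay below 10 scaled RPKM, 66 between 10 and 100, 43 between 100 and 1000, and 9 above 1000. Before the step, 11 members averaged below 1 scaled RPKM, 42 between 1 and 10, 53 between 10 and 100, and 18 at least 100. Most of the group was thus already expressed in the trunk tissue at the cut, and 6 members were below 1 scaled RPKM in all 4 earlier libraries.

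All 8 later libraries lay above all 4 earlier ones in 114 of the 124 members, and in 6.35% of all transcripts tested. The rule chose on this difference, so the 114 say nothing beyond it. The members held between 2.45% and 3.52% of all RPKM in the later libraries, against 0.653% to 0.790% in the earlier ones. The most abundant member supplied at most 0.770% of a library, and the shares without it were 2.43% to 3.32% and 0.650% to 0.785%.

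**Figure D2:**
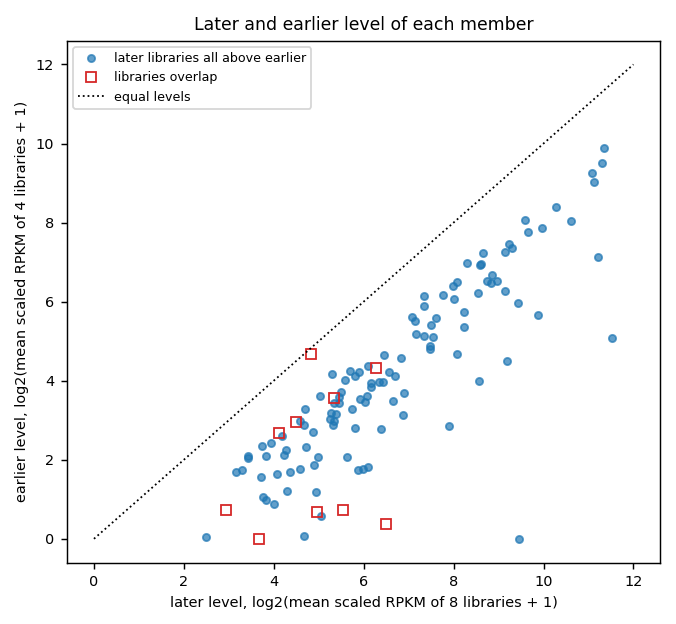
Later level of each of the 124 members (horizontal axis, log2 of the mean scaled RPKM of 8 libraries plus 1) against its earlier level (vertical axis, the same over 4 libraries); the dotted line marks equal levels. Filled points are the 114 members whose later libraries all lay above the earlier ones, and open squares are the 10 whose libraries overlap, most of them at low levels.

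XM_004210825.1 had the largest gap, 8.80. In the 4 libraries of the earlier times it was below 0.001 scaled RPKM. It then stood at 425 and 467 at 4 h, 321 and 637 at 6 h, 1812 and 939 at 12 h, and 399 and 606 at 48 h. Its lowest later library was thus at 321 scaled RPKM, and both pools were highest at 12 h.

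XM_004205392.1 had the next largest gap, 4.16. Its libraries gave 2.99 and 45.4 scaled RPKM at 0 h, 7.49 and 31.2 at 2 h, 776 and 717 at 4 h, 656 and 1051 at 6 h, 691 and 145 at 12 h, and 243 and 358 at 48 h. Its pools differed most at 0 h, where the second pool was the higher, and at 12 h, where it was the lower.

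XM_002156352.2 had the highest later mean, 2929 scaled RPKM, and a gap of 4.00. It gave 42.7 and 27.5 scaled RPKM at 0 h, 37.2 and 23.0 at 2 h, 271 and 1344 at 4 h, 275 and 1160 at 6 h, 2679 and 773 at 12 h, and 9195 and 7735 at 48 h. Replicates at 4, 6 and 12 h were several-fold apart, and both 48 h libraries stood above every other library.

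XM_004211882.1 had the next highest later mean and also the highest earlier mean of all members. It gave 1196 and 827 scaled RPKM at 0 h, 709 and 1059 at 2 h, 1926 and 2416 at 4 h, 2844 and 2749 at 6 h, 2029 and 2449 at 12 h, and 3261 and 3178 at 48 h. XM_002161425.2, next in earlier level, gave 763 and 730 at 0 h, 688 and 738 at 2 h, 2365 and 2578 at 4 h, 3105 and 2752 at 6 h, 3416 and 2686 at 12 h, and 1778 and 1457 at 48 h. In both transcripts the later libraries did not overlap the earlier ones.

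At the other end, XM_004212621.1 had the lowest later mean. It gave 0.118 and 0 scaled RPKM at 0 h, 0 in both libraries at 2 h, 1.15 and 9.63 at 4 h, 0.791 and 3.37 at 6 h, 1.06 and 5.43 at 12 h, and 11.8 and 3.70 at 48 h. XM_004205978.1, next lowest, gave 4.27 and 1.64 at 4 h, 7.41 and 4.64 at 6 h, 4.32 and 2.20 at 12 h, and 0.0378 and 28.8 at 48 h, against 1.55 and 0.0555 at 0 h and 0.0289 and 1.03 at 2 h. At 48 h the membership of XM_004205978.1 thus rests on the second pool alone.

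**Figure D3:**
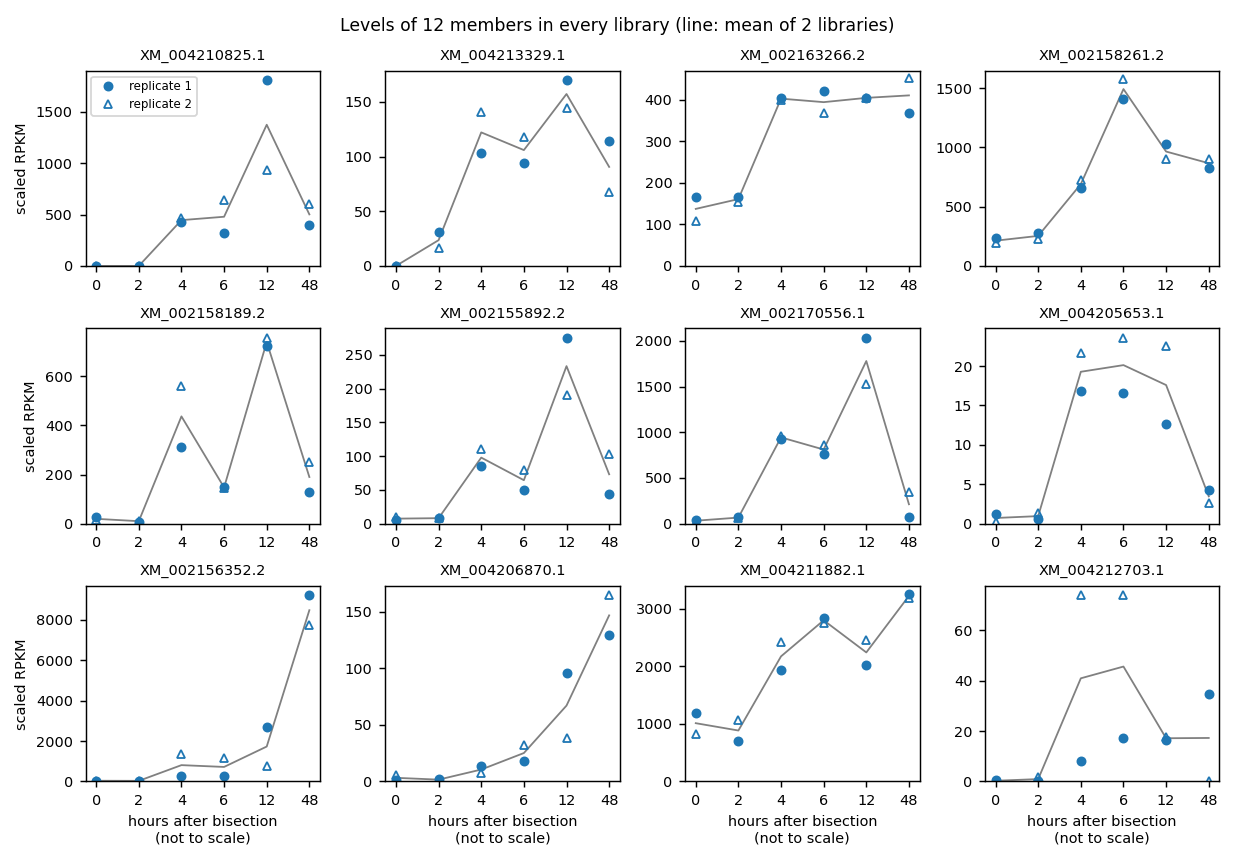
Scaled RPKM (vertical axes, each starting at 0) of 12 members at 0, 2, 4, 6, 12 and 48 h after bisection (horizontal axes, evenly spaced); filled circles are replicate 1, the first pool, open triangles replicate 2, the second pool, and the line is the mean of the 2 libraries. After 4 h some members stay level (XM_002163266.2), some peak at 6 h (XM_002158261.2) or 12 h (XM_002158189.2), and some reach their highest level at 48 h (XM_002156352.2, XM_004206870.1).

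The rule averages the 2 libraries of a time, so its result was looked at in libraries it had not used. Chosen on the first library of every time alone, 117 predicted mRNAs met the limit. In the second libraries their median gap was 0.93, with 91 of 117 (77.8%) above 0 and 51 (43.6%) at 1 or more. Over all predicted mRNAs the shares above 0 and at 1 or more in the second libraries were 10.4% and 0.806%. Chosen on the second libraries alone, 137 met the limit, and in the first libraries their median gap was 0.82, with 121 of 137 (88.3%) above 0 and 51 (37.2%) at 1 or more, against 11.4% and 0.689% of all predicted mRNAs. In these 2 sets the direction mostly held in the libraries not used for choosing, with a smaller gap. The shares over all predicted mRNAs include transcripts too low to pass the filter used below. The sets are not the group itself: 73 of the 117 and 95 of the 137 are members. First and second libraries share the same times and the same scaling, so anything common to a time is in both.

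Of the 124 members, 55 met the limit whichever of the 12 libraries was left out, and 69 fell below it at least once. The number of transcripts past the limit then lay between 110, without the second 4 h pool, and 142, without the second 48 h pool. Members differed between replicates more than transcripts in general: in order of time, the median size of the difference between the 2 pools over members was 0.48, 0.30, 0.31, 0.35, 0.43 and 0.50 log2 units, and over all transcripts tested 0.25, 0.19, 0.19, 0.18, 0.31 and 0.44.

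At 4, 6 and 12 h the pools also differed mostly in 1 direction over the members. At 4 h, 68.5% of members were higher in the second pool, and at 6 h 81.5%, where 51.2% and 51.9% of all transcripts tested were. At 12 h, 68.5% of members were higher in the first pool, where 50.4% of all transcripts tested were. The tilt was smaller at the other times. In the first pool 58.9% of members were higher at 0 h and 58.1% at 48 h, against 53.1% and 49.7% of all transcripts tested. At 2 h, 51.6% of members were higher in the second pool, against 49.0%. At 0 h, 15 members were at 1 scaled RPKM or more in the first pool and below 1 in the second, and 1 member the other way round. The second 0 h pool also listed fewer transcripts above 0 in the whole table, 15519, than the first pool, with 16850. The part of these library differences in the gaps was not tested. Without the second 0 h pool, 107 of the 124 members still met the limit.

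**Figure D4:**
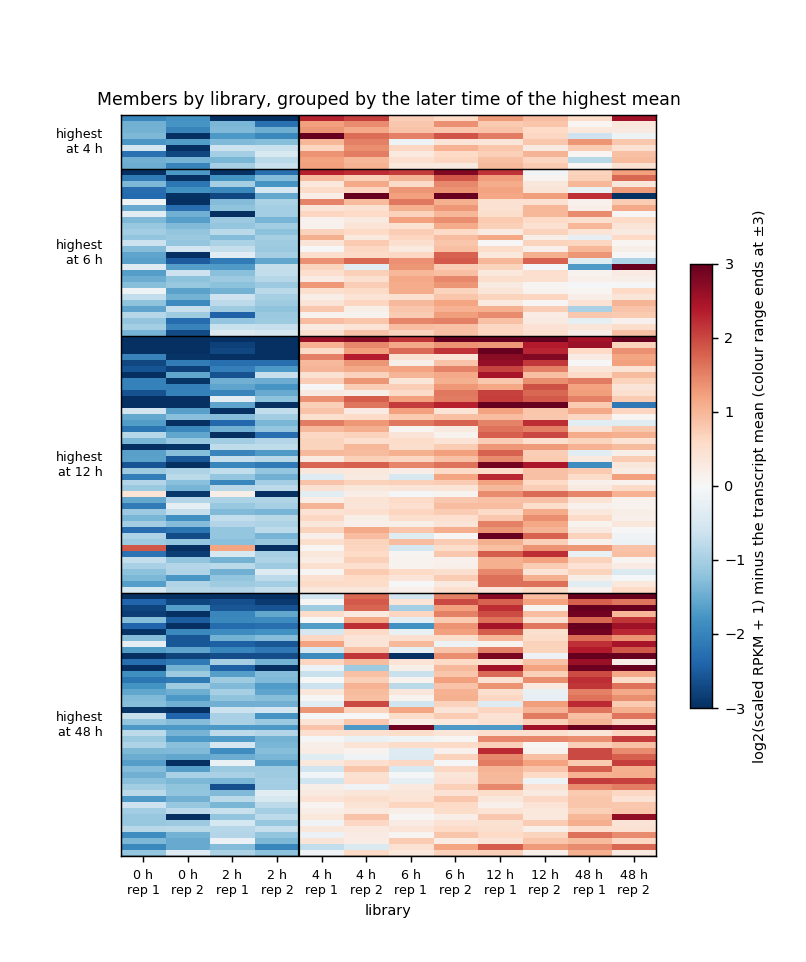
Level of each of the 124 members (rows) in each of the 12 libraries (columns), as log2(scaled RPKM + 1) minus the transcript's mean over all libraries; rows are grouped by the later time of their highest mean and ordered by gap, and the vertical line separates 0 h and 2 h from the later times. Blue lies almost wholly left of that line, which the rule sets, and right of it the darkest red moves to 12 h and to 48 h in the groups of 43 and 44 members that peak there.

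What the rule did not set is how the members moved within the earlier pair of times and among the 4 later ones, although it keeps each later mean above a floor. These differences were tested in limma on log2(scaled RPKM + 1), with p-values adjusted over all 14089 transcripts with at least 1 scaled RPKM in at least 2 libraries. All 124 members passed that filter. A transcript was called when the adjusted p was below 0.05 and the log2 difference at least 1 in size. Since every time has 2 libraries, the spread was estimated over all 6 times together, with 6 residual degrees of freedom, and all tests were two-sided. This takes the spread as equal at every time. The median replicate difference over all transcripts tested was, however, 0.44 log2 units at 48 h and 0.19 at 4 h. The p-values of contrasts with 48 h may therefore be too small. Fitted to only the 4 libraries of the times compared, a setting added after seeing the data and not among the 21 alternatives counted below, limma called 0 members in each of the 5 contrasts. That fit called few of all transcripts tested, at most 6 higher and 21 lower, both at 48 h minus 4 h. Every single-contrast call below therefore rests on the spread shared over all times. Counts over all transcripts tested also moved when a library was left out. A moved member count below is thus not by itself a trait of the members.

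Among 4, 6, 12 and 48 h most members showed no difference that the test could call. The moderated F-test found 32 of 124 members (25.8%) to differ among these times, against 18.9% of all transcripts tested. The 4 later means of a member spanned less than 0.5 log2 units in 21 members, less than 1 in 59, and 2 or more in 18. By highest mean, 9 members peaked at 4 h, 28 at 6 h, 43 at 12 h, while 44 had it at 48 h, and both pools, taken singly, put 64 members' highest value at a shared time. Without the first 4 h pool the F-test called 18 members, without the first 6 h pool it called 20, and without the first 12 h pool it called 21.

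The flattest member after the step was XM_002163266.2, whose later means lay within 0.05 log2 units. It gave 165 and 109 scaled RPKM at 0 h, 167 and 155 at 2 h, 405 and 399 at 4 h, 419 and 368 at 6 h, 404 and 403 at 12 h, and 368 and 452 at 48 h. XM_004209352.1, next in flatness with a span of 0.13, lay between 31.7 and 44.2 in all later libraries, against 15.3 to 19.7 in the earlier ones. In both, the later libraries all lay above the earlier ones.

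From 0 h to 2 h, before the step that defines the group, 3 members (2.42%) were higher at 2 h and 0 were lower, against 0.142% and 0.0355% of all transcripts tested. By limma's unadjusted p below 0.05, 23 members were higher and 2 lower, against 8.78% and 5.56% of all transcripts tested. The median difference over the members was 0.23 log2 units, with 89 of 124 (71.8%) above 0, and over all transcripts tested it was 0.05, with 54.8% above 0. The 2 h mean was at least 0.5 log2 units above that at 0 h in 42 members and at least 0.5 below it in 9. Over all transcripts tested, the number called higher at 2 h also depended on single libraries. It rose without the first 0 h pool or either one of the 48 h pools. Without any other single library, the second 0 h pool among them, it fell.

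XM_004213329.1 had the largest of the early rises called. It stood at 31.1 and 16.1 scaled RPKM at 2 h, against 0.0332 and a value near 0 at 0 h (log2 difference 4.53, SE 0.33, limma adjusted p = 0.00182), and its lowest later library gave 67.2. XM_002166561.2 stood at 57.5 and 60.1 at 2 h, against 11.1 and 5.65 at 0 h (log2 difference 2.74, SE 0.37, adjusted p = 0.0289). The third, XM_002162714.2, stood at 152 and 151 at 2 h, against 30.1 and 32.5 at 0 h (log2 difference 2.24, SE 0.14, adjusted p = 0.00107), and is named because it completes the count. In each of the 3, both 2 h libraries lay above both 0 h libraries and below all later ones.

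The calls of XM_004213329.1 and XM_002162714.2 held in all 21 alternatives planned. That of XM_002166561.2 held in 12 (adjusted p from 0.0155 to 0.239) and was lost without the second 0 h pool (0.239), the first 2 h pool (0.127), the second 2 h pool (0.124), the first 4 h pool (0.0544), the second 4 h pool (0.0547), the first 12 h pool (0.0652) or the second 12 h pool (0.0656), without the filter (0.0563) and without a variance trend (0.0550). The count of 3 was 7 without the first 0 h pool and 5 without either one of the 48 h pools.

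From 4 h to 6 h, 1 member (0.806%) was higher at 6 h and 0 were lower, against 0.135% and 0.0568% of all transcripts tested. By limma's unadjusted p below 0.05, 5 were higher and 6 lower, against 2.97% and 2.98% of all transcripts tested. The median difference over the members was 0.10, with 62.9% above 0 and a range of −1.53 to 1.41, and over all transcripts tested 0.01, with 52.3% above 0. The member called was XM_002158261.2, at 1406 and 1578 scaled RPKM at 6 h, against 659 and 721 at 4 h (log2 difference 1.11, SE 0.16, limma adjusted p = 0.0396). It stood at 235 and 190 at 0 h and went no higher later, with 1030 and 900 at 12 h. The call held in 10 of 21 alternatives (adjusted p 0.00368 to 0.490) and was lost without the first 0 h pool (0.0647), the second 0 h pool (0.0652), the first 4 h pool (0.436), the second 4 h pool (0.240), the first 6 h pool (0.178), the second 6 h pool (0.490), the first 12 h pool (0.0706) or the second 12 h pool (0.0711), with the replicate block (0.0730), without the filter (0.0563) and without a variance trend (0.1199).

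From 6 h to 12 h, 7 members (5.65%) were higher at 12 h and 1 (0.806%) was lower, against 1.07% and 1.39% of all transcripts tested. The median difference over the members was 0.26, with 66.1% above 0, and over all transcripts tested −0.03, with 47.4% above 0. Over all transcripts tested, fewer were called higher without any one of the 6 h and 12 h pools. More were called higher without either one of the 48 h pools. The member counts moved the same way. The count of 7 was 0 without either one of the 6 h pools, 1 without the first 12 h pool, 3 without the second 12 h pool and 11 without either one of the 48 h pools. The count of 1 was 0 without any one of the 6 h and 12 h pools.

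XM_002158189.2 had the largest of the rises called. It stood at 722 and 757 scaled RPKM at 12 h, against 150 and 145 at 6 h (log2 difference 2.32, SE 0.42, limma adjusted p = 0.0233). At 4 h it was at 312 and 561, above both 6 h libraries, but 6 h against 4 h was not called (log2 difference −1.4985, adjusted p = 0.342). Its call held in 16 of 21 alternatives (adjusted p 0.0122 to 0.141) and was lost without the first 6 h pool (0.139), the second 6 h pool (0.141), the first 12 h pool (0.0758) or the second 12 h pool (0.0899), and without the filter (0.0545).

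XM_002155892.2 was also called higher, with 276 and 191 scaled RPKM at 12 h, against 49.3 and 79.5 at 6 h (log2 difference 1.86, SE 0.40, adjusted p = 0.0407). This rise held in 8 of 21 alternatives (0.0126 to 0.260) and was lost without any 1 of the 10 libraries of 0, 2, 4, 6 and 12 h, with adjusted p between 0.0523 (without the first 0 h pool) and 0.260 (without the first 6 h pool), with a pseudocount of 0.1 (0.0506), without the filter (0.0875) and without a variance trend (0.0625). The member that fell was XM_004206334.1, at 28.7 and 25.4 at 12 h, against 53.0 and 61.2 at 6 h (log2 difference −1.05, SE 0.20, adjusted p = 0.0287). Its call held in 16 of 21 (0.0221 to 0.196) and was lost without the first 6 h pool (0.134), the second 6 h pool (0.196), the first 12 h pool (0.0698) or the second 12 h pool (0.115), and with a pseudocount of 5, where the log2 difference of −0.95 was below 1 in size.

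From 12 h to 48 h the members mostly moved down where they were called: 1 (0.806%) was higher at 48 h and 15 (12.1%) were lower, against 2.95% and 4.22% of all transcripts tested. The median difference over the members was −0.05 and over all transcripts tested 0. Of the 15 that fell, 14 had their highest mean at 12 h, and 4 were among the 7 that had risen from 6 h to 12 h. Both contrasts use the same 12 h libraries, so high values there favour both calls. These 2 counts are therefore no separate result. The count of 15 was 4 without the first 12 h pool. With weights per library, which gave both 48 h libraries a weight of 0.305 and the 4 h libraries 1.93, it was 1. Over all transcripts tested, 594 were called lower in the main fit and 125 with these weights. Without the first 12 h pool the count over all transcripts tested fell less, in proportion, than that of the members. In both settings the share of members called lower was close to that of all transcripts tested. The higher share of members called lower in the main fit was thus lost without the first 12 h pool and with library weights.

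XM_004206928.1 fell furthest of the members called, to 17.7 and 1.44 scaled RPKM at 48 h, against 110 and 88.5 at 12 h (log2 difference −3.88, SE 0.87, limma adjusted p = 0.0235). The 48 h libraries were several-fold apart, and 1 of them lay below an earlier library, the first 2 h pool at 2.62. The call held in 15 of 21 alternatives (adjusted p 0.00149 to 0.170) and was lost without the first 12 h pool (0.0910), the second 12 h pool (0.0814) or the second 48 h pool (0.0593), where the log2 difference was −2.41, with weights per library (0.170), with a pseudocount of 0.1 (0.105) and without the filter (0.0633).

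XM_002170556.1 fell to 76.1 and 349 scaled RPKM at 48 h, against 2035 and 1523 at 12 h (log2 difference −3.42, SE 0.60, adjusted p = 0.00935). It had stood at 928 and 960 at 4 h, at 70.8 and 63.0 at 2 h and at 44.9 and 20.0 at 0 h. Its 48 h level thus lay between those of 2 h and 4 h, and in the first pool, at 76.1, it was just above that of 2 h. This call held in all 21 alternatives. XM_002158189.2 also fell, to 130 and 250 scaled RPKM at 48 h (log2 difference −2.03, adjusted p = 0.0173), as did XM_002155892.2, to 43.8 and 102 (log2 difference −1.76, adjusted p = 0.0266). Both lost the call without either one of the 12 h pools (adjusted p 0.0596 to 0.118) and with library weights (0.199 and 0.182), and XM_002155892.2 also without the first 48 h pool (0.0527) and without the filter (0.0640). XM_004210825.1, the member with the largest gap, was called lower at 48 h as well (log2 difference −1.41, adjusted p = 0.0435) and kept the call in 8 of 21 alternatives (adjusted p 0.0245 to 0.330). It lost the call without any one of the pools of 0, 2 and 4 h (0.0621 to 0.0714), the first 12 h pool (0.185, log2 difference −0.93) or the first 48 h pool (0.103), with the replicate block (0.0598), library weights (0.330) or a pseudocount of 0.1 (0.0513), without the filter (0.0921) and without a variance trend (0.0606).

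The member that rose was XM_002167405.2, at 81.8 and 80.2 scaled RPKM at 48 h, against 37.2 and 16.4 at 12 h (log2 difference 1.67, SE 0.44, adjusted p = 0.0431). That call held in 7 of 21 alternatives (0.0287 to 0.372) and was lost without any 1 of 9 libraries, both of 0 h, both of 2 h, both of 6 h, the second 12 h pool and both of 48 h, with adjusted p between 0.0552 (without the first 6 h pool) and 0.194 (without the second 12 h pool), with the replicate block (0.0591), a pseudocount of 0.1 (0.0528) or library weights (0.372), without the filter (0.0908) and without a variance trend (0.0562).

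**Figure D5:**
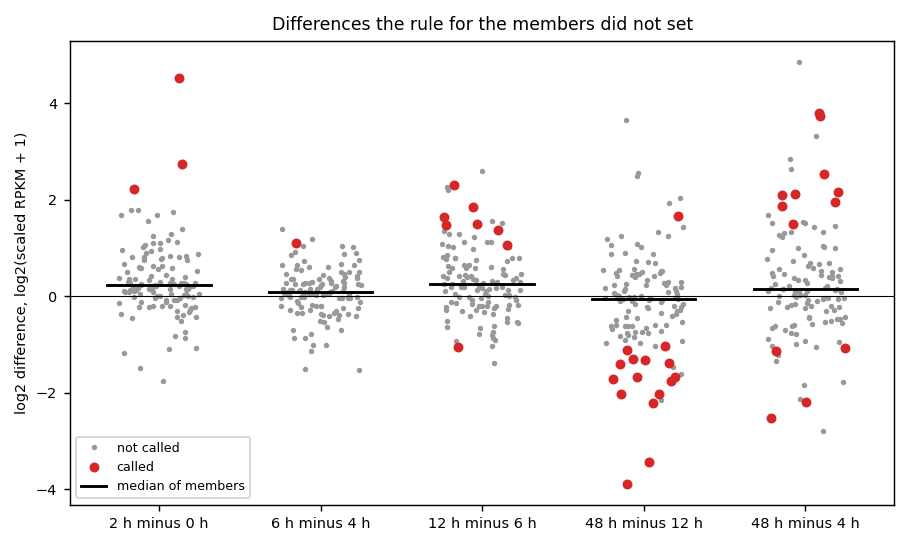
Log2 difference of each of the 124 members (vertical axis, on log2(scaled RPKM + 1)) in the 5 contrasts that the rule did not set (horizontal axis); red points passed limma's adjusted p below 0.05 with a difference of at least 1 in size, grey points did not, and bars are medians over the members. Red points lie above 0 at 2 h minus 0 h and mostly so at 12 h minus 6 h, and 15 of 16 lie below 0 at 48 h minus 12 h.

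Over the whole span from 4 h to 48 h, 9 members (7.26%) were higher at 48 h and 4 (3.23%) were lower, against 4.75% and 6.28% of all transcripts tested. The median difference was 0.15 over the members and −0.02 over all transcripts tested. By size alone, the 48 h mean lay at least 1 log2 unit above that at 4 h in 28 members, at least 1 below it in 12 and within 1 of it in 84. Later means went up at every step in 16 members and down at every step in 3, and means went up at every step from 0 h on in 11. The count of 9 was 4 without the first 4 h pool and 14 without the second 4 h pool, and the count of 4 was 1 without the first 4 h pool, 2 without the second 4 h pool and 10 without the second 48 h pool.

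The largest rise called over this span was that of XM_002156352.2, the most abundant member, with a log2 difference of 3.80 (SE 0.88, limma adjusted p = 0.0187) and the library values given above. Its call held in 17 of 21 alternatives (adjusted p 0.0160 to 0.155) and was lost without the first 4 h pool (0.134), the lower of its 4 h libraries, where the log2 difference was 2.65, or the second 48 h pool (0.0514), without the filter (0.0518) and with library weights (0.155). XM_004206870.1 stood at 129 and 164 scaled RPKM at 48 h, against 14.0 and 7.08 at 4 h (log2 difference 3.74, SE 0.60, adjusted p = 0.00441). It gave 18.1 and 32.2 at 6 h and 95.8 and 38.2 at 12 h, and 1.07 and 5.36 at 0 h. Its mean was thus higher at each time from 6 h on than at the one before, and its call held in all 21 alternatives.

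The largest falls called from 4 h to 48 h were those of XM_002170556.1 and XM_004205653.1. The library values of XM_002170556.1 given above correspond to a log2 difference of −2.52 (SE 0.60, adjusted p = 0.0206), which held in 18 of 21 alternatives (0.00158 to 0.106) and was lost without the first 4 h pool (0.106) or the second 4 h pool (0.0951), and without the filter (0.0549). XM_004205653.1 stood at 4.30 and 2.64 scaled RPKM at 48 h, against 16.9 and 21.6 at 4 h (log2 difference −2.20, SE 0.40, adjusted p = 0.00752). It was at 16.6 and 23.6 at 6 h and 12.7 and 22.5 at 12 h, and its 48 h libraries were still above all earlier ones, the highest of which was 1.33. The fall held in 20 of 21 (0.00361 to 0.0556) and was lost without the second 4 h pool (0.0556).

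No call was made in any of the 5 contrasts for 92 of the 124 members (74.2%), against 85.3% of all transcripts tested, which shows that the test made none, not that their levels were equal. The 2 members whose later replicates differed most were XM_004212703.1 and XM_004205978.1. XM_004212703.1 stood at 34.5 scaled RPKM in the first 48 h pool and at 0 in the second 48 h pool, and at 8.07 and 73.8 at 4 h and 17.4 and 73.8 at 6 h. For such transcripts the 2 libraries of a time do not fix the level to better than several-fold.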

How the data were processed

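Values are RPKM for 17353 transcripts in 12 libraries, computed by the authors and deposited as 1 table. Reads were aligned with Bowtie 0.12.8, per the submitters' processing notes. For the transcript build, read assignment and further scaling, no statement was found: not given in the sources used here. Each library held 1489 to 1968 values above 0 and below 0.001 RPKM, so whole reads could not be recovered, depth is unknown and no counting interval is given. Similar transcripts may share reads.

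Library scaling, as in the rule for the members, multiplied RPKM by 0.690 to 0.919. It was used throughout because the median of common transcripts was lower later, at 21.8 RPKM in the second 48 h pool against 29.0 RPKM in the first 0 h pool. The factors were 0.690 to 0.791 in the earlier libraries and 0.839 to 0.919 in the later ones. The scaling thus raises later against earlier values, the direction the rule selects, and 37 members fell below the limit without it. Levels are single libraries or means, and differences on log2(value + 1) understate the change of low transcripts. limma 3.58.1 under R 4.3.3 fitted a mean per time to all 12 libraries with a variance trend, and p-values were adjusted by Benjamini-Hochberg. The script was tested on simulated data.

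Members and lists were chosen with earlier results of these data known. Printed members are the 2 most extreme for gap, level, flatness, replicate difference and each contrast and direction. p-values cover the spread between pools, which may be technical. Alternatives were pseudocounts of 0.1 and 5, no filter and a filter at 5, no scaling, quantile normalization, no trend, library weights, a replicate block and each library left out. These make 21, and a fit of only the 4 libraries compared was added after seeing the data.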

Additional observations from a re-analysis of the deposited data

Results flagged for a closer look

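Predicted non-coding transcripts were outside the rule, and 10 of 364 of them (2.75%) met the same limit, against 124 of 16988 predicted mRNAs (0.730%); whether these shares differ was not tested. The one with the largest gap, 2.14, was XR_181943.1. It gave 97.0 and 125 scaled RPKM at 0 h, 126 and 117 at 2 h, 588 and 602 at 4 h, 803 and 867 at 6 h, 1681 and 1334 at 12 h, but only 509 and 569 at 48 h. The next, XR_181787.1, had a gap of 1.94 and gave 68.9 and 34.1 at 0 h, 28.4 and 51.5 at 2 h, 447 and 332 at 4 h, 358 and 279 at 6 h, 311 and 258 at 12 h, and 196 and 181 at 48 h. In both, all later libraries lay above all earlier ones.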

How the results depend on the processing

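Recomputed under the alternatives, 184 of 259 counts were within 1.5 times that of the report. These include members lower at 2 h against 0 h and at 6 h against 4 h. Both counts were 0 in the main fit, so for them only another 0 was taken as the same. The number of transcripts past the limit was 81 with a pseudocount of 5, all of them members, 88 without scaling, 87 of them members, and 110 to 142 with each library left out. With each library left out, members called higher ranged from 2 to 7 at 2 h against 0 h, 0 to 1 at 6 h against 4 h, 0 to 11 at 12 h against 6 h, 0 to 2 at 48 h against 12 h and 4 to 14 at 48 h against 4 h. Members called lower ranged from 0 to 1, 0 to 1, 0 to 1, 4 to 16 and 1 to 10 in the same order, and those differing among the later times from 18 to 34. With limma weights per library the higher counts were 6 at 2 h, 2 at 6 h, 0 at 48 h against 12 h and 3 at 48 h against 4 h, the lower counts 1, 3, 1 and 2, and the F-test called 17. Without the filter the F-test called 16, 48 h against 12 h gave 0 higher and 9 lower, 48 h against 4 h 2 lower and 6 h 0 higher. At 48 h against 12 h the 1 higher call was 0 without a trend, with a pseudocount of 0.1 or with the replicate block, 2 with a filter at 5 and 3 with a pseudocount of 5. The 1 call at 6 h was 0 without a trend or with the replicate block, and the 1 lower call at 12 h was 0 with a pseudocount of 5. Quantile normalization gave 5 higher and 1 lower at 2 h. Without scaling, 48 h against 4 h gave 7 lower. Fitted to only the 4 libraries compared, limma called 0 members in every contrast, so every call printed was lost there. Of all transcripts tested it called at most 6 higher and 21 lower in a contrast. At an unadjusted p below 0.05 that fit had 9 to 23 members higher (7.26% to 18.5%, against 6.42% to 11.7% of all transcripts) and 2 to 27 lower (1.61% to 21.8%, against 6.59% to 12.7%). No call changed direction under the 21 alternatives fitted to all times. Counts over all transcripts tested moved between settings as well. With library weights, they went from 20 to 77 for higher at 2 h against 0 h. For lower at 48 h against 12 h they went from 594 to 125. The cause of these changes was not tested. Over 15 pairs of times the correlation of replicate differences, across all transcripts tested, lay between −0.10 and 0.25. It was above 0.1 in 1 pair and below −0.1 in 1. Whether replicate numbers pair libraries is not settled by this, and it was not tested over the members. Apart from the counts given above for it, the replicate block moved no count by over 1.5 times. Each arm rests on 2 libraries, and a single library left in an arm is assumed to vary like the rest.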

Other observations

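Among the 10 members whose later and earlier libraries overlap, chosen here after their values were seen, 2 had earlier levels that followed the pool number. XM_004211537.1 stood at 60.6 scaled RPKM in the first pool and near 0 in the second at 0 h, and at 37.5 and 0.0287 at 2 h, while its 8 later libraries lay between 10.7 and 41.7. XM_004210712.1 stood at 11.5 and 0.270 at 0 h and at 9.73 and 0.0123 at 2 h, while its later libraries lay between 6.51 and 29.7. In both the gap arises from the second pools, since the first pools of 0 h and 2 h were within or above the later range.

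XM_004210498.1, also chosen after its values were seen, was near 0 in all 4 earlier libraries and again in 3 of the 8 later ones. Its later libraries gave 5.04 and 0.0132 scaled RPKM at 4 h, 23.9 and 0.0136 at 6 h, a value near 0 and 18.1 at 12 h, and 25.1 and 22.3 at 48 h.

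Of the members, 56.5% carry accessions of the XM_002 series and 43.5% of the XM_004 series, against 53.2% and 46.8% of all predicted mRNAs.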
